A study of Homo sapiens with 3 samples.

Results

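Runs of RUNX2 binding sites that lay close together on a chromosome were described in SAOS2 cells. RUNX2 peaks on chromosomes 1 to 22 and X were chained when the gap from the end of one peak to the start of the next was 12500 bp or less, and chains of at least 3 peaks were kept as clusters. The clusters were therefore chosen by the measured positions of the RUNX2 peaks, and their number, length and RUNX2 scores are a description with no test. Of the 9926 RUNX2 peaks on these chromosomes, out of 9941 in the list, 798 fell into 235 clusters, or 8.04%. A further 1886 peaks lay in 943 pairs, and 7242 were single. The data were ChIP-seq peak lists, in which DNA bound by a protein is precipitated with an antibody and sequenced. The groups were 1 RUNX2 library made with a custom antibody, 1 CBFB library made with an antibody from Bethyl, and 1 input library without antibody, which was not analysed here. Cells of this osteosarcoma line, which is p53 null, were used for every library, were untreated and had been kept for under 20 passages. With 1 library per antibody in 1 cell line there was no replicate, so no p-value was computed and the intervals below cover counting error only.

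RUNX2 is the transcription factor that directs osteoblast differentiation, and it binds DNA through its Runt domain. CBFB is the partner subunit shared by the RUNX proteins. It holds the Runt domain in its DNA-binding form and makes no sequence-specific contact of its own. Several binding sites of a lineage factor within one stretch of chromatin are a common feature of genes that a cell type expresses strongly.

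The clearest bone gene among the large clusters was ALPL, which encodes the tissue-nonspecific alkaline phosphatase needed for mineralization. The RUNX core, the hexamer TGTGGT, was looked for on both strands, the other strand reading ACCACA, in the hg19 (GRCh37) sequence. In the 10 largest clusters, the highest-scoring peak of the ALPL cluster was the one that held a core within 100 bp of its midpoint. The core nearest each midpoint is shown for the 6 of 7 ALPL peaks that held one, with 12 bases to either side and the core in capitals. The other 5 were added after their values were seen, to show how the cores lay across one cluster. Positions count from 1, and each sequence runs 5′ to 3′ along the strand that carries TGTGGT. Those of peaks 1 to 3 lay in introns of ALPL, those of peaks 5 and 6 in introns of the long non-coding RNA gene LINC02596 beyond its 3′ end, and that of peak 7 in no annotated gene.
Peak 1, chr1:21890914-21890943, minus strand, core 57 bp from the midpoint: tggttcttggggTGTGGTggcggtcacatg
Peak 2, chr1:21893751-21893780, plus strand, 162 bp: agagaacactagTGTGGTggtcaccgcagg
Peak 3, chr1:21895447-21895476, plus strand, 151 bp: tctggaaatgacTGTGGTcagggctgaaga
Peak 5, chr1:21913699-21913728, plus strand, 411 bp: cctcccatgtgcTGTGGTgtgggcaggcag
Peak 6, the highest, chr1:21916854-21916883, minus strand, 18 bp: ggtgggggagccTGTGGTttccctgtttgt
Peak 7, chr1:21919396-21919425, minus strand, 487 bp: gtgctcagtctcTGTGGTgtccctttatct

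A different arrangement stood under a few of the highest RUNX2 scores. Peaks outside clusters held up to 91 cores among single peaks and up to 28 in pairs. Without peaks that held 10 or more cores or were over 4 kb wide, 9867 of all 9926 RUNX2 peaks were left. Peaks with 10 or more cores were not counted by themselves outside clusters, so no trait particular to clusters can be read from their number. Of the 798 cluster peaks, 4 held 10 or more cores, and the peak with most cores was also the cluster peak with the highest score. It lay in an intron of BAHCC1, which encodes a chromatin-binding protein, at chr17:79397946-79400327. It held 69 cores in 2382 bp, every one of them on the plus strand. The commonest distance from one core to the next was 28 bp, found 16 times. The peak next in number of cores lay in an intron of PARVB, a focal adhesion gene, at chr22:44549957-44552149, with 35 cores on the plus strand and a commonest distance of 18 bp, found 11 times. The 150 bases of each with most cores are shown, with the cores in capitals. They were chosen after the counts were seen.
BAHCC1, chr17:79398684-79398833, 9 cores: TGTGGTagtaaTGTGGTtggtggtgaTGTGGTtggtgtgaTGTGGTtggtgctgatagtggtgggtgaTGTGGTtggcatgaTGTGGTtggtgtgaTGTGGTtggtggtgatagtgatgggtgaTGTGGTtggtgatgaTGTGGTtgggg
PARVB, chr22:44550508-44550657, 11 cores: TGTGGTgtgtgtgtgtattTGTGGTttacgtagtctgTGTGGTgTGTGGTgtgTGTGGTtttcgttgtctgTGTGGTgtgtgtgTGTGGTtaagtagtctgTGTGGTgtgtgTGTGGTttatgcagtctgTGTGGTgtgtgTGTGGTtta

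The ALPL peaks thus held at most 2 cores each, whereas the BAHCC1 and PARVB windows were built from short repeated units that carried the core. The BAHCC1 peak scored 3100, the top value in the list, and the CBFB peak over it also scored 3100. The same value was the highest for CBFB and also stood at CBFB peaks in BAIAP2 and near UQCRFS1. Whether 3100 is an upper limit of the score was not tested, so peaks that share it cannot be ranked. The PARVB peak scored 524.26 and was paired with a CBFB peak of 3100. The remaining peaks with 10 or more cores lay in neighbouring clusters on chromosome 19. The first of these clusters lay 408102 bp from an assembly gap. The peaks held 15 and 22 cores and scored 1718.81 and 798.88.

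Most clusters were small. Of the 235 clusters, 171 held 3 peaks, 45 held 4, 14 held 5, 1 held 6, 3 held 7 and 1 held 8. The span from the first to the last peak had a median of 15051 bp and ran from 3336 to 46303 bp, and the gaps within clusters had a median of 4498 bp. The score is the value the peak caller gave each peak, read here as its p-value as minus 10 times the log10, so that it ranks peaks within a list. Its median was 97.4 in clusters and 83.2 outside. The scores within a cluster were uneven. The highest peak scored a median of 2.78 times the lowest of the same cluster and 1.65 times the second. In 163 clusters the highest peak belonged to the top score group, the highest of 5 groups of equal size, with scores of at least 144. The best of 3 or more peaks reaches that group more often than 1 peak does. Peak by peak, the share in the top score group was 30.7% in clusters, 19.1% outside and 20.0% of all. In 14 clusters no peak reached the median of the list. The highest peak was not tied to one end: in clusters of 3 it was the first peak 49 times, the middle peak 62 times and the last peak 60 times.

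The cluster with most RUNX2 peaks held 8 peaks at chr6:44002207-44043111, over the long non-coding RNA gene SCIRT. No protein-coding gene overlapped it. TMEM63B, a membrane channel gene, had the nearest start site. MRPL14, a mitochondrial ribosome gene, lay 38076 bp to the right. VEGFA, the gene of the main angiogenic growth factor, ended 247982 bp to the left. From left to right the 8 RUNX2 scores were 69.1, 126.66, 59.7, 68.8, 66.8, 65.9, 69.0 and 140.19. The cluster was thus long and low, with the highest scores at the second and last peaks, and each of its peaks overlapped a CBFB peak.

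**Figure D1:**
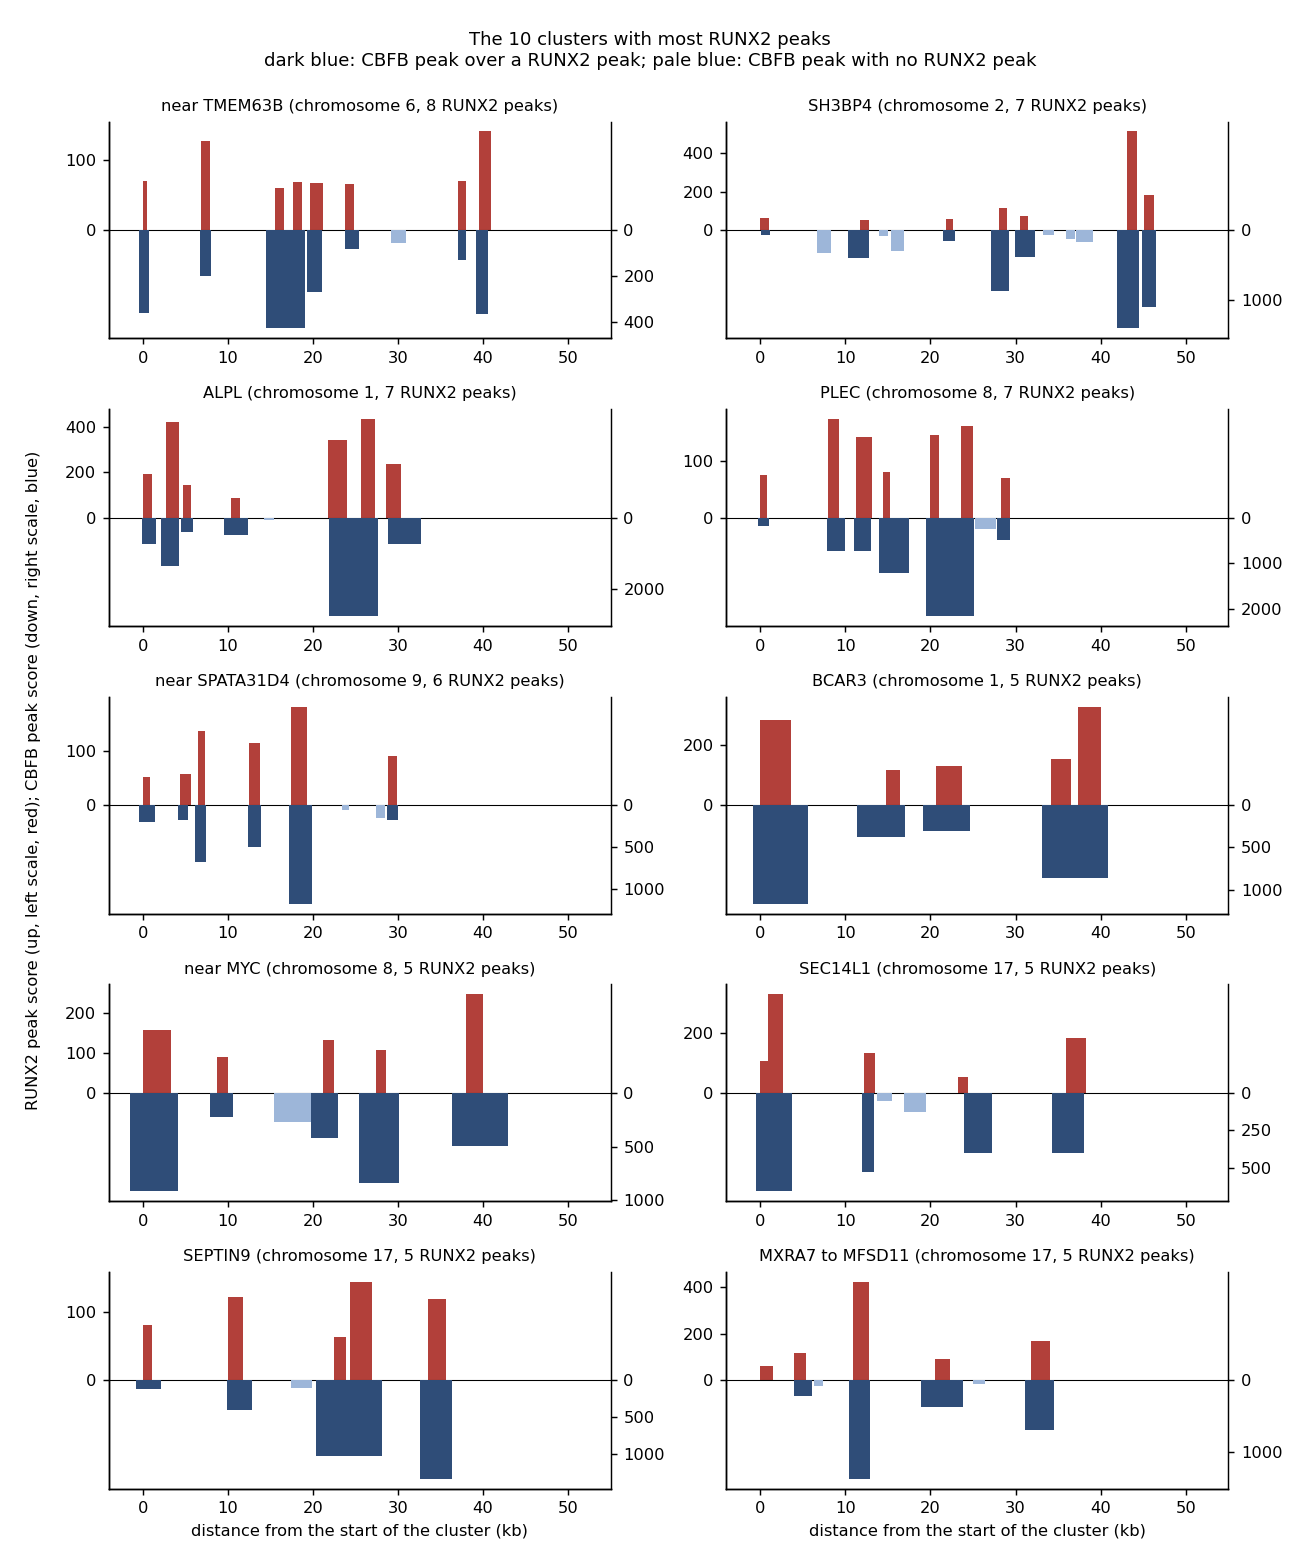
The 10 clusters with most RUNX2 peaks, each on its own score scales, against the distance from the start of the cluster in kb. Red bars pointing up are RUNX2 peaks and blue bars pointing down are CBFB peaks, pale blue where no RUNX2 peak overlapped them; the SH3BP4 panel holds 6 pale bars, more than any other panel.

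The next cluster by peaks and length lay wholly inside SH3BP4, a gene linked to endocytosis, at chr2:235861717-235908019. Its 7 RUNX2 scores were 60.2, 51.7, 58.6, 116, 71.7, 513.93 and 183.57, so that the peaks at its right end were far above the rest. The same span held 13 CBFB peaks, of which 6 overlapped no RUNX2 peak. The highest of these CBFB-only peaks scored 326.89. No other cluster held as many CBFB peaks or as many CBFB-only peaks.

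The ALPL cluster, at chr1:21890421-21920736, held all 7 RUNX2 peaks found within 25 kb of the ALPL body. Their scores were 191.47, 420.22, 144.86, 86.1, 343.9, 434.16 and 235.9, with a median of 235.9, the highest median among the 10 largest clusters. Of these, 4 peaks lay in ALPL introns and 3 beyond its 3′ end, toward RAP1GAP, which encodes a GTPase-activating protein and lay 1977 bp from the cluster. The latter 3 scored from 235.9 to 434.16 and the intronic ones from 86.1 to 420.22. A single CBFB peak with a score of 2747.23 covered peaks 5 and 6, counted from the left.

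PLEC, the gene of the cytoskeletal linker plectin, held 7 peaks in its introns on chromosome 8, with scores from 70.5 to 173.64. Their levels were the most even of the clusters with 7 peaks, and the highest was 2.46 times the lowest. A cluster of 6 peaks on chromosome 9, at chr9:84429828-84459706, touched no protein-coding gene. SPATA31D4 lay 83636 bp to its right and had the nearest start site. TLE1, the gene of a Groucho corepressor that binds RUNX proteins, lay 125365 bp to its left. The scores of its 6 peaks were 51.8, 57.3, 136.96, 115.17, 181.64 and 91.4, and none of them lay within 5 kb of a start site.

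Clusters of 5 peaks completed the 10. BCAR3, which encodes an adaptor of the focal adhesion protein p130Cas, held 5 peaks in its introns with scores from 118 to 328.01. These peaks were wide, from 1716 to 3589 bp, against a median of 1040 bp over cluster peaks. Another cluster of 5 lay over PVT1, the long non-coding RNA gene beside MYC, 146729 bp from the end of MYC. Its scores were 159.58, 89.9, 132.29, 106.69 and 248.31, and none of its 5 peaks held the core within 100 bp of the midpoint. The MYC body itself had 1 RUNX2 peak within 25 kb, with a score of 74.6, outside any cluster.

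The other clusters of 5 in this group were neighbours on chromosome 17, within a stretch that started at MXRA7 and ended in SEPTIN9. The first ran over 6 genes, among them JMJD6, a dioxygenase gene, and SRSF2, which encodes a splicing factor. Its scores were 60.7, 117.56, 420, 91.4 and 166.17, and its lowest peak had no CBFB peak. The second lay in SEC14L1, a gene of the SEC14-like lipid-binding family, with scores from 52.1 to 327.19. The third lay in SEPTIN9, which encodes a cytoskeletal GTPase, with scores from 63.2 to 144.13.

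Ranking by summed score brought up clusters that owed their sum to 1 or 2 peaks. The BAHCC1 cluster summed to 3732.62, of which its repeat-bearing peak gave 3100. A cluster on chromosome 19, whose nearest gene was UQCRFS1, a respiratory chain gene, summed to 2321.99 with 1 peak at 1718.81. That cluster lay 1530580 bp from the gene. In the cluster that reached SNX6, an endosomal sorting gene, peaks of 1127.37 and 954.83 each covered an annotated U1 small nuclear RNA sequence. These were RNU1-27P and RNU1-28P, whose symbols end in the P of pseudogene names. The last peak scored 52.0. The CBFB peaks over those of 1127.37 and 954.83 scored 527.06 and 538.89. Both were below the median of 890 for CBFB partners of cluster peaks in the top RUNX2 score group.

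The clusters near CCN1 and in BAIAP2 were also named by summed score. CCN1 encodes a matricellular protein and is a well-known target of YAP and TEAD. A cluster of 4 peaks began 20982 bp beyond the gene and scored 1356.85, 188.78, 195.13 and 135.8, and a second cluster of 3 peaks, 18916 bp away from it, lay over CCN1 itself and the adjoining edge of DDAH1. BAIAP2, the gene of an actin and membrane scaffold, held 5 peaks of 138.5, 1184.74, 214.4, 141.16 and 122.28. At both places 1 peak stood far above its neighbours, and a CBFB peak of 3003.74 or 3100 lay over it. The same was seen in BAHCC1 and near UQCRFS1, where the CBFB peak over the highest peak scored 3100.

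CBFB binding was measured in a separate library that played no part in choosing the clusters. A shared stretch of at least 1 bp with a CBFB peak was found for 94.2% of RUNX2 peaks on these chromosomes. In clusters the share was 96.5% (770 of 798, 94.97 to 97.7), and outside it was 94.0% (93.5 to 94.5). Weighting the peaks outside by the score groups of the cluster peaks gave 95.1%, which lies inside the interval of the cluster share. In 212 of 235 clusters every RUNX2 peak overlapped a CBFB peak. The order turned under stricter overlap. With at least 50% of each of both peaks in common, the share was 59.0% in clusters and 76.6% outside, and with midpoints within 200 bp it was 52.8% and 70.3%.

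The paired CBFB peaks differed in shape and score. The CBFB peak paired with a RUNX2 peak, taken as the highest one that overlapped it, had a median width of 1843 bp (1774 to 1967) in clusters, 1492 bp in pairs and 1308 bp at single peaks. Its midpoint lay a median of 165 bp from that of the RUNX2 peak in clusters and 92 bp outside. The CBFB peaks over cluster peaks were thus wider and less well centred on each RUNX2 peak. In 69 clusters, 1 CBFB peak lay over at least 2 RUNX2 peaks, which can happen only where RUNX2 peaks are neighbours.

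CBFB partners of cluster peaks also scored higher. Their median score was 424 (395 to 484), against 316 (298 to 335) in pairs and 263 (258 to 270) at single peaks. The difference was also seen within groups of RUNX2 score. In the lowest RUNX2 score group the median partner score was 236 (195 to 277) in clusters and 160 (152 to 168) outside, and in the highest group it was 890 (838 to 982) and 673 (650 to 702). The RUNX2 scores were themselves higher in clusters within the highest group, with medians of 232 and 200.5, and close in the lowest, at 54.9 and 54.4. The intervals of cluster and outside peaks were apart in all 5 groups. Against pairs alone, they were apart in the lowest and highest groups and overlapped in groups 2, 3 and 4, counted from the lowest. In these the cluster medians were 278, 297 and 424, and those of pairs 220, 250 and 376. When RUNX2 peaks were grouped by the width of the CBFB partner instead, the intervals of cluster and outside peaks overlapped in the 4 narrower groups. In the widest group the medians were 719 (633 to 780) and 510 (483 to 532), and the partners of cluster peaks there were themselves wider, 3175 bp against 2629 bp. Peaks of 1 cluster can share a CBFB peak, so these values are not independent, and the part of peak width in the difference was not tested further.

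**Figure D2:**
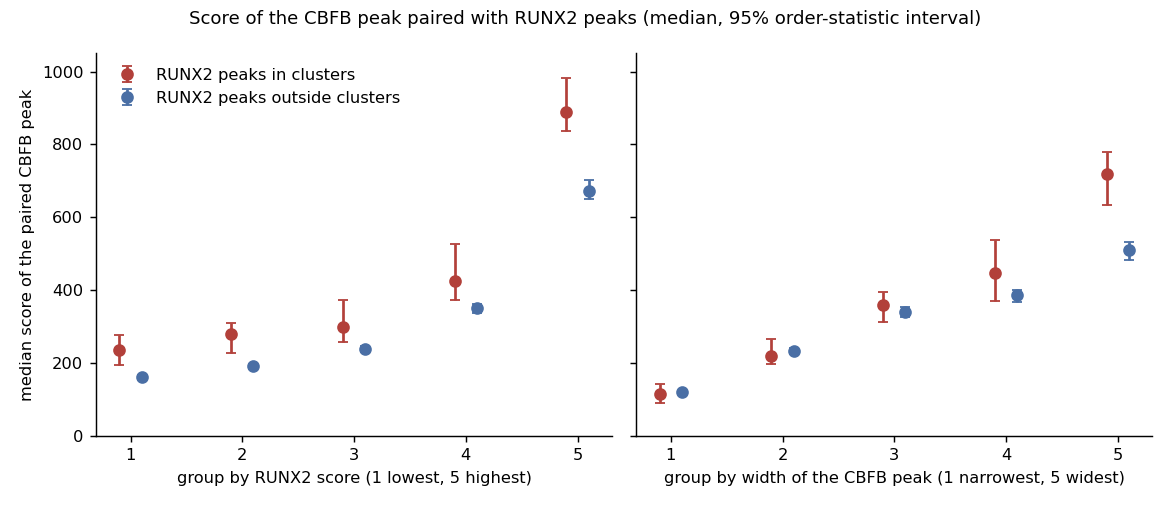
Median score of the CBFB peak paired with RUNX2 peaks in clusters (red) and outside (blue), with 95% intervals from order statistics, by group of RUNX2 score on the left and by group of CBFB peak width on the right. The red points lie above the blue ones in all 5 groups on the left, and on the right the intervals are apart only in the widest group, at 719 and 510.

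Inside clusters, RUNX2 peaks of higher score had CBFB partners of higher score. The rank correlation (Spearman's rho) of RUNX2 with partner scores was 0.588 over 770 cluster peaks and 0.601 over 8584 peaks outside. It was 0.611 over 769 peaks when each score was taken relative to its cluster mean on the log2 scale. These are correlations across peaks, which share 2 libraries and are not replicates. The highest RUNX2 peak and the highest CBFB peak of a cluster shared at least 1 bp in 165 clusters, or 70.2% (63.9 to 76.0). No reference share was computed. In 69 clusters 1 CBFB peak lay over at least 2 RUNX2 peaks, which by itself raises this share.

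Clusters also held CBFB peaks where no RUNX2 peak was called. The 235 spans contained 803 CBFB peaks, and 105 of them, or 13.1% (10.8 to 15.6), overlapped no RUNX2 peak. Over all CBFB peaks this share was 66.2%, but the spans begin and end with RUNX2 peaks and hold at least 3 by the rule, so the lower share in clusters is set in part by how they were chosen. The 105 peaks were spread over 72 clusters. Their median score of 90.3 was close to that of CBFB-only peaks elsewhere, 91.2, and well below the 395 of the shared CBFB peaks in clusters. Beside the SH3BP4 cluster, the SMAD3 cluster on chromosome 15 had 4 CBFB-only peaks among 8. SMAD3 is the signal transducer of TGF-beta receptors.

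Per length of DNA, CBFB-only peaks were denser in and around clusters than around other RUNX2 peaks. Between the peaks of clusters they numbered 3.73 per 100 kb (3.05 to 4.52), and between the peaks of pairs 2.54 (2.11 to 3.03). Within 12500 bp to either side the densities were 3.37 beside clusters, 2.61 beside pairs and 1.66 beside single peaks. From 50 to 100 kb away they were 1.97, 1.58 and 0.971. The density thus fell with distance from each class and kept the order of the classes at both distances. By the rule, the stretches within 12500 bp hold no further RUNX2 peak, whereas those from 50 to 100 kb can. A CBFB peak far away can therefore overlap a RUNX2 peak and not be counted. The part of this in the fall with distance was not tested. Against single peaks, the density between cluster peaks was 2.24 times as high, 3.75 times with clusters of 5 or more peaks, 1.47 times with peaks at or above the median score, and 0.964 times when clusters were built with a gap of 5 kb. In the 5 kb setting only 6 CBFB-only peaks lay in cluster spans, and the stretches beside single peaks still reached 12500 bp. No direction can be read from that value.

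**Figure D3:**
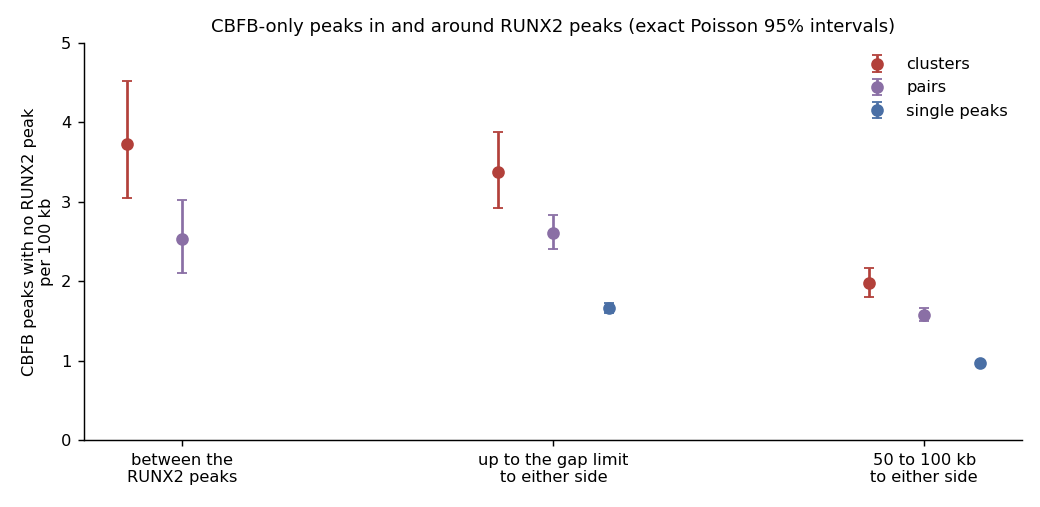
CBFB peaks with no RUNX2 peak per 100 kb, between the RUNX2 peaks of clusters and pairs, up to 12500 bp to either side, and 50 to 100 kb to either side, with exact Poisson 95% intervals. Clusters (red) have the highest density at each place, 3.73 between their peaks and 1.97 far away.

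The CBFB list gave clusters of its own under the same rule. It held 1780 chains of 3 or more peaks with 6844 peaks, and the longest had 25 peaks. Of the 235 RUNX2 clusters, 208 touched such a chain and 178 lay wholly inside one. Where the RUNX2 peaks of a cluster overlap separate CBFB peaks, this follows from the rule. Seen from the other list, 11.5% of the CBFB chains touched a RUNX2 cluster.

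Only 28 cluster peaks had no CBFB peak, in 23 clusters. Most were weak, with a median RUNX2 score of 59.9, and 6 held the core within 100 bp of the midpoint. The 5 highest came from 2 places, which were singled out after the values were seen. A cluster over histone genes on chromosome 1, from H4C14 to H4C15, had 4 peaks, and those of 163.02 and 229.12 lacked CBFB. The cluster at chr1:161411082-161433061, whose nearest start site was that of the Fc receptor gene FCGR2A, was the one cluster with no CBFB peak at all. Its 3 peaks scored 163.19, 164.43 and 118.25 and were 7248, 7061 and 3795 bp wide. Of all cluster peaks, 9 were over 4 kb wide, and these included 2 of the 3 near FCGR2A. Peaks outside clusters were up to 6704 bp wide, and those over 4 kb were not counted there. The cause of the wide cluster peaks was not tested.

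In position relative to genes, cluster peaks differed little from other RUNX2 peaks at 5 kb and more at 1 kb. A midpoint within 5 kb of an annotated start site was found for 45.9% of all RUNX2 peaks, 46.0% of cluster peaks (42.5 to 49.5) and 45.9% of those outside. Within 1 kb the share was 21.3% in clusters (18.5 to 24.3) and 27.4% outside (26.4 to 28.3). Outside, it was 23.2% in pairs (21.3 to 25.2), an interval that overlapped that of clusters, and 28.4% at single peaks (27.4 to 29.5). Inside a protein-coding gene lay 56.9% of cluster peaks and 54.8% of the others. Of the 235 clusters, 163 touched a protein-coding gene and 95 lay wholly inside one. In 53 clusters every peak was within 5 kb of a start site, in 77 none was, and 105 combined both. A group of 36 clusters touched no protein-coding gene and lay over 100 kb from the nearest start site of one.

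The share of peaks with a RUNX core differed between clusters and the rest by less than counting error, and its order changed with the peaks used. The core stood within 100 bp of the midpoint in 43.2% of all RUNX2 peaks, 41.5% of cluster peaks (38.0 to 45.0) and 43.3% of those outside. In windows of the same size 2 kb away that touched no peak it was found in 12.7% around clusters. The longer form TGTGGTT was found in 23.2% of cluster peaks and 23.4% outside, against 2.81% in the windows beside clusters. At least 1 peak carried a core within 100 bp of its midpoint in 194 of 235 clusters, and every peak did in 17. The highest peak of each cluster held the core in 42.6% of cases and the others in 41.0%. In the 19 clusters with 5 or more peaks the share was 30.5% (21.9 to 40.2), against 43.3% of the other peaks. When clusters were built from peaks at or above the median score it was 36.9% (30.3 to 43.9), against 44.5% outside. Without 1 Mb windows dense in RUNX2 peaks it was instead higher in clusters, at 51.9% (46.0 to 57.9) against 44.3%.

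Among the other motifs searched on both strands, which were AP-1 (TGANTCA), TEAD (GGAATG), ETS (CCGGAAG), the GC box (GGGCGG) and the E-box (CANNTG), the ETS motif alone differed between clusters and the rest by more than counting error. It was found in 8 cluster peaks, or 1.00% (0.434 to 1.97), and in 3.22% (2.87 to 3.60) of peaks outside. The size of the difference depended on the definition. The cluster share was 0.311 times that outside, 0.567 times with a gap of 25 kb, 0.554 times without dense windows and 0.165 times with peaks at or above the median score. This ETS motif is common near start sites, where fewer cluster peaks lay. Within 1 kb of a start site it was found in 2.94% of cluster peaks (0.962 to 6.73) and 9.29% of the others (8.18 to 10.5), and farther away in 0.478% and 0.935%, with overlapping intervals. The GC box was found in 12.8% of cluster peaks and 13.7% of the others, but its order changed with distance. Within 1 kb of a start site it was found in 27.6% of cluster peaks (21.1 to 35.0) and 35.0% of the others (33.1 to 36.9). Farther away it was found in 8.76% (6.67 to 11.2) and 5.72% (5.17 to 6.30), with intervals apart. The AP-1 motif was found in 11.4% of cluster peaks (9.28 to 13.8) and 13.2% of the others (12.5 to 13.9). A motif match describes the sequence and does not show which protein bound there.

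**Figure D4:**
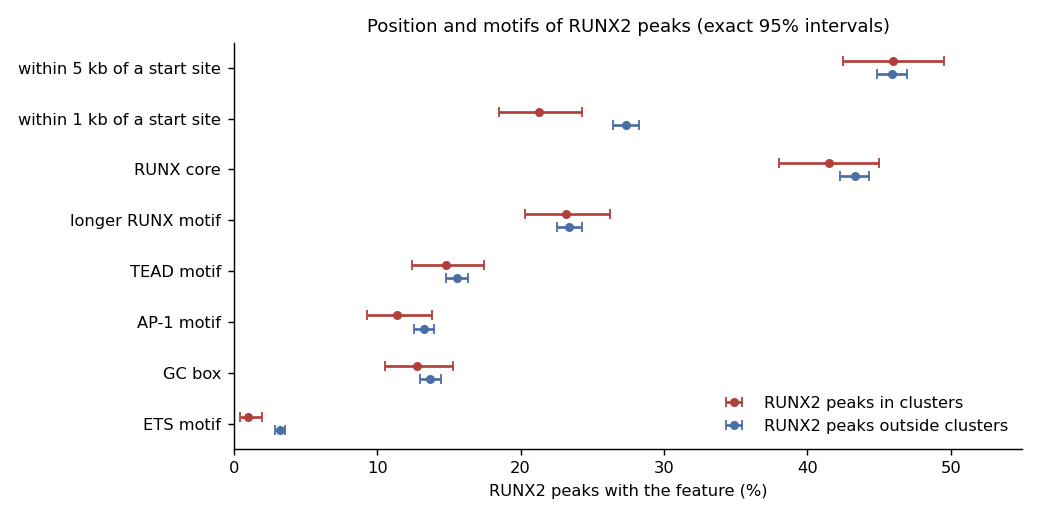
Share of RUNX2 peaks in clusters (red) and outside (blue) near a start site or with a motif within 100 bp of the midpoint, with exact 95% intervals. The intervals are apart for the 1 kb distance, 21.3% and 27.4%, and for the ETS motif, 1.00% and 3.22%.

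Bone and signalling genes were then looked up around the clusters. The gene lists were chosen with earlier results of these data known, so their shares are a description and no test. Of the 20090 protein-coding genes, 353 had a cluster within 25 kb of the gene body, or 1.76%. Of the 157 genes in 7 lists on osteoblast factors, bone matrix, the RUNX family and its corepressors, AP-1, YAP and TEAD, TGF-beta and BMP, and actin and adhesion, 13 did, or 8.28% (4.48 to 13.7). In 3 lists of markers of hepatocytes, blood cells and neurons, 1 of 48 genes did, the synaptic vesicle gene SYP. The genes of the 7 lists had a RUNX2 peak nearby more often, 58.6% against 36.2%, and were longer, with a median of 55.3 kb against 27.3 kb. Among genes with a RUNX2 peak within 25 kb, a cluster was near 14.1% of the list genes (7.74 to 22.95) and 4.86% of all protein-coding genes, at median lengths of 81.0 and 36.9 kb. The part of gene length in this difference was not tested.

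The 13 genes came from each of the 7 lists. For bone matrix they were ALPL and the collagen genes COL6A3 and COL5A2, of 26 listed. The osteoblast homeobox genes DLX5 and DLX6 shared 1 cluster of 3 peaks, with a top score of 497.57 and a summed score of 638.96, and were 2 of 16. RUNX1 and the corepressor gene TLE4 were 2 of 15, with clusters of 3 peaks that summed to 596.76 and 539.46. The RUNX1 body is 1216868 bp long and had 23 RUNX2 peaks within reach, so that the 3 in a cluster were a small part of them. In the TGF-beta list, 3 of 35 genes were found. TGFB1, the ligand, had 4 peaks with a top score of 635.23, SMAD3 had 4, and SMURF1, a ubiquitin ligase of this pathway, had 3. FOSL2, an AP-1 subunit gene, was 1 of 16, CCN1 was 1 of 22 in the YAP and TEAD list, and MYH9, the gene of a non-muscle myosin heavy chain, was 1 of 28. The MYH9 cluster was weak, with a top score of 59.8.

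Of the 16 listed osteoblast factors, 9 had a RUNX2 peak within 25 kb and 2 had a cluster. Over all protein-coding genes these shares were 36.2% and 1.76%. The genes RUNX2 and SP7 had RUNX2 peaks but no cluster. RUNX2 itself had 9 peaks within 25 kb, the highest with a score of 681.08, and the longest chain among them held 2. Its nearest cluster was 664329 bp away. SP7, which encodes the osteoblast factor osterix, had 2 peaks with a top score of 69.0, and its nearest cluster was 4352443 bp away. The gene with most cluster peaks was instead CUEDC1, which encodes a ubiquitin-binding CUE domain protein, with 13 peaks in 3 clusters separated by 16433 and 15666 bp. It was singled out after the counts were seen. SEPTIN9, DDAH1 and ASPSCR1, each with 8 cluster peaks in 2 clusters, followed.

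The number of clusters was then counted per chromosome. Chromosome 17 had 26 clusters, or 0.334 per Mb of sequence (0.218 to 0.490), against 0.0829 over all chromosomes used. Of its RUNX2 peaks 17.3% (14.2 to 20.8) were in clusters. It also had the most RUNX2 and CBFB peaks per Mb, 6.97 and 18.1. Chromosome 21 followed with 8 clusters, or 0.228 per Mb (0.0984 to 0.449), and chromosome 1 had the largest number, 40. Chromosome 18 had none among 66 RUNX2 peaks, and chromosomes 4 and 10 had 2 each. Within chromosome 17, 15 clusters lay between 70 and 80 Mb. Of all clusters, 85 lay within 500 kb of another. The copy number of these regions in SAOS2 cells was not measured, and its part in the number of peaks called was not tested.

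**Figure D5:**
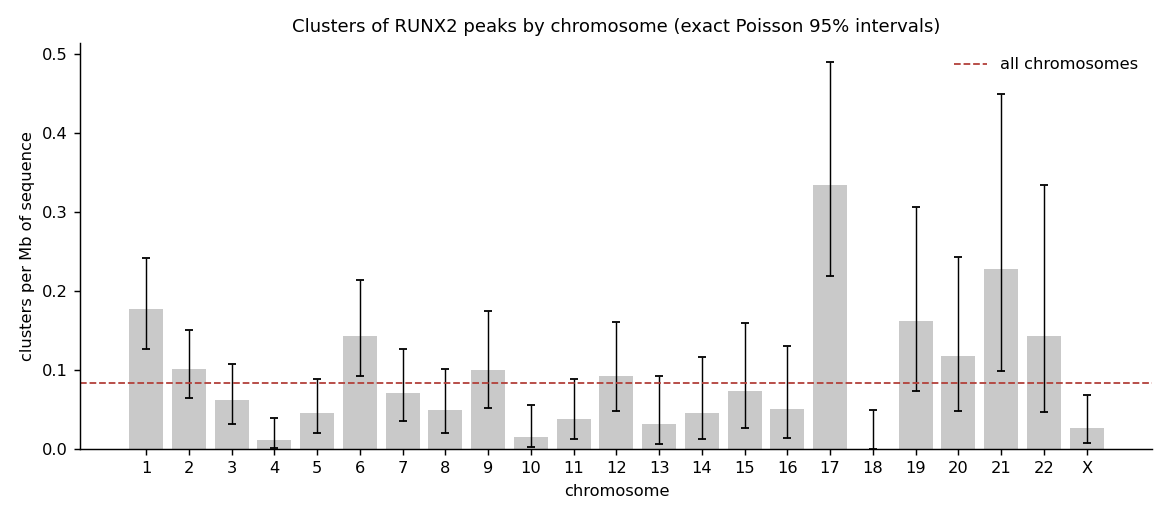
Clusters per Mb of sequence on each chromosome (grey bars) with exact Poisson 95% intervals, and the value over all chromosomes used as a dashed line at 0.0829. Chromosome 17 is highest at 0.334, and chromosome 18 has no cluster.

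The limit of 12500 bp fell in a range of gaps with no break. There were 32 gaps from 12 kb up to the limit and 33 from there to 13 kb. The 10 clusters whose largest gap was in the last 500 bp below the limit held 37 peaks with a median score of 83.5, and every one overlapped a CBFB peak. A limit of 13 kb would have added 27 peaks with a median score of 105, of which 96.3% overlapped a CBFB peak.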

How the data were processed

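ChIP-seq peak lists of 1 RUNX2 and 1 CBFB library from SAOS2 cells were used. According to the submitters' processing notes, CASAVA 1.8.2, MACS 1.4.1 and the build hg19 were used. The aligner, the calling limit and the use of the input were not given in the sources used here. The lists deposited by the authors gave the position and the score of each peak, from 50 to 3100. They hold no read counts, so the depth is unknown. The score was read as the MACS score from the peak names and range and was compared only within a list.

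RUNX2 peaks were chained over gaps of up to 12500 bp, and chains of 3 or more were kept. The clusters and gene lists were chosen with earlier results of these data known. Genes and start sites came from GENCODE release 44 in its GRCh37 version, with 20090 protein-coding gene names. Promoters reached 5 kb from a start site, and genes within 25 kb of a cluster were counted. The text names the 10 clusters with most peaks, the 5 others with the highest summed score, up to 4 genes per list, and ALPL, MYC, RUNX2 and SP7. Others are marked as chosen after their values were seen. Shares carry exact Clopper-Pearson 95% intervals, counts exact Poisson intervals and medians order-statistic intervals, which cover counting error only. The chaining and overlap steps were tested on simulated peaks. Alternatives covered the gap, the cluster size, the score, dense regions, assembly gaps, the overlap, the motif, the promoter width and the gene distance. Analyses used Python 3.11.15, numpy 2.4.6, pandas 2.3.3, scipy 1.17.1, pysam 0.24.0 and matplotlib 3.10.9.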

Additional observations from a re-analysis of the deposited data

How the results depend on the processing

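Each antibody had 1 library, so leaving out a library was not an option. No paired analysis was possible because the comparison was between peaks within these lists. Without a replicate, read depth or copy number, a missing peak cannot be told apart from one under the calling limit. Most values below were outside the interval of the reported value, or over 1.5 times from it. The cause was not tested except where fewer peaks or a narrower definition enter by construction.

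With a gap of 5 kb, 4 or more peaks, 5 or more peaks, peaks at or above the median score, a gap of 25 kb, or without 1 Mb windows dense in RUNX2 peaks, the share of RUNX2 peaks in clusters was 2.70%, 2.87%, 1.06%, 4.15%, 17.8% and 4.01%, and the highest density of clusters per Mb was 0.103, 0.116, 0.0900, 0.141, 0.501 and 0.0855. The share of list genes near a cluster was 3.82%, 2.55%, 0.637%, 2.55%, 18.5% and 1.91%, against 0.692%, 0.632%, 0.144%, 0.612%, 3.95% and 0.672% of all protein-coding genes. Without the dense windows the most clustered chromosome was 21, and in the other 5 settings it was 17. Without chromosome 17, a setting chosen after seeing the data, the share of clustered peaks was 7.50% and chromosome 21 led with 0.228 clusters per Mb.

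The share of CBFB peaks without a RUNX2 peak was 2.70% with a gap of 5 kb, 21.1% with 25 kb, 16.1% and 24.1% with 4 or 5 or more peaks, 9.34% without dense windows and 3.96% with as many top CBFB peaks as RUNX2 peaks. With a gap of 5 kb the CBFB-only density between cluster peaks was 0.964 times that beside single peaks. Only 6 CBFB-only peaks lay in cluster spans in that setting, too few to read a direction. The share of cluster peaks overlapping a CBFB peak was 98.2% without dense windows, 82.3% with the top CBFB peaks (68.6% outside), 59.0% with an overlap of 50% and 52.8% with midpoints within 200 bp. The core share was 30.5% with 5 or more peaks (43.3% outside), 36.9% with peaks at or above the median score (44.5%), 51.9% without dense windows (44.3%), 23.2% for TGTGGTT (23.4%), 22.3% within 50 bp (24.2%) and 81.0% in the whole peak (77.9%), so that the order turned without dense windows and in the whole peak. The promoter share was 56.2% with 5 or more peaks (45.8% outside) and 51.0% at or above the median score (45.6%). It was 21.3% within 1 kb (27.4%) and 26.3% with start sites of protein-coding transcripts (28.1%). The median score was 115 with 4 or more peaks (83.56 outside) and 122 with 5 or more (83.95). It was 148 with peaks at or above the median score (127.7) and 91.5 without dense windows (81.32). At or above the median score the CBFB share in clusters, 96.6%, was inside the reported interval but below the 98.8% outside. The 0.228 clusters per Mb without chromosome 17 also lay inside the interval, on another chromosome. In all, 142 values were recomputed under 19 settings, and 83 stayed within the interval or 1.5 times the reported value. The partner score ratio over 5 score groups, 1.34, ranged from 1.19 to 1.52.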
